A study of Mus musculus with 8 samples.

Results

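Potassium channel genes were followed in the ventricles of mouse embryos at embryonic day 15.5 (E15.5), with 4 libraries of wild-type (WT) embryos and 4 of embryos labelled Nrg-1flox;Cdh5-CreERT2, which the sample titles call Flox. The members were all protein-coding mouse genes whose symbol begins with *Kcn*, without the non-coding RNA *Kcnq1ot1* and without pseudogenes. This gave 94 genes among the 53465 genes of the table. Of these, 41 had a mean of at least 1 CPM (expected counts scaled to 1000000 per library with TMM factors) over the 8 libraries, and 39 of them are given with their values. The labels give the genotype, the tissue and the stage, and 1 ventricle per library, without saying whether it was the left or the right one. In the Flox line a tamoxifen-inducible Cre driven by the endothelial *Cdh5* promoter is directed at a floxed *Nrg1* allele (neuregulin-1, a secreted growth factor), so the targeted cells are endothelial while the RNA came from all cells of the ventricle. When tamoxifen was given, which exons were floxed, and whether the WT embryos carried Cre or received tamoxifen are not given in the sources used here.

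Potassium channels carry the outward currents that repolarise the cardiac action potential and hold the resting membrane potential. Voltage-gated alpha subunits form the transient outward and delayed rectifier currents, inward rectifiers set the resting potential and respond to acetylcholine or to ATP, tandem-pore (K2P) channels carry background current, and calcium-activated channels link repolarisation to calcium. Auxiliary subunits do not form a pore and change the gating or trafficking of the alpha subunits. In the ventricle many of these genes are expressed by cardiomyocytes, and some also by vascular, nerve and conduction cells.

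*Nrg1*, the targeted gene, was not lower in the Flox libraries. It was at 5.46, 4.64, 4.08 and 5.31 CPM in the WT libraries 1 to 4 and at 6.82, 6.33, 6.16 and 5.36 CPM in the Flox libraries 1 to 4. The log2 fold change was 0.34 (edgeR, adjusted p = 0.311), and it lay between 0.27 and 0.40 under 19 alternative settings. The count covers the whole gene and does not separate the floxed exons, so it is a limited check of the labels, and each direction below is that of the groups as labelled. Library totals ran from 16761763 to 24144272 expected counts, the smallest being Flox library 4. The summed level of 4 Y-linked genes was 69.3 to 171 CPM in the WT libraries and 42.9 to 120 CPM in the Flox libraries, and the female-specific *Xist* was at 0.18 CPM in WT library 4 and at 103 CPM or more in the other 7 libraries. These 7 libraries thus held RNA of both sexes although the labels give 1 ventricle per library, so whether a library stands for 1 embryo is not settled, and each n and SD counts libraries. The cardiomyocyte markers *Tnnt2*, *Myh7*, *Myl2*, *Myl3* and *Actc1* summed to 40589 to 43795 CPM in the WT libraries and to 39954 to 44607 CPM in the Flox libraries. RNA of cardiomyocytes was thus present in every library, and this sum does not by itself tell ventricle from atrium.

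The *Kcn* genes together took 830 ± 10.01 CPM in the WT libraries and 843 ± 8.11 CPM in the Flox libraries (SD, n = 4 each), and the groups overlapped. Voltage-gated alpha subunits held 41.2% of this sum on average, inward rectifiers 28.0%, auxiliary subunits 17.9%, tandem-pore channels 7.86% and calcium- or sodium-activated channels 5.09%. By subfamily letter, the 15 *Kcnj* genes summed to the most (239 ± 4.68 CPM for WT and 229 ± 8.17 CPM for Flox), followed by *Kcnh* (129 ± 3.97 and 136 ± 3.41 CPM), *Kcne* (115 ± 7.08 and 116 ± 9.43 CPM), *Kcng* (79.4 ± 3.20 and 94.8 ± 3.10 CPM), *Kcnk* (65.2 ± 2.35 and 66.3 ± 2.005 CPM) and *Kcnq* (63.5 ± 1.94 and 64.6 ± 4.70 CPM). Of these 6 sums, the groups were apart only for *Kcng*. Levels of different genes were compared as CPM per kilobase of exonic sequence. On that scale the highest members were *Kcne1* (31.9), an auxiliary subunit of the slow delayed rectifier, *Kcng2* (29.0), a silent subunit that modifies Kv2 channels, and *Kcnh2* (26.2), the pore subunit of the rapid delayed rectifier. Then came *Kcnj5* (17.5), *Kcnj11* (14.9), *Kcnk3* (13.1), *Kcnq1* (11.5), *Kcnj8* (6.91), *Kcnj2* (6.25) and *Kcna5* (4.98). The ranges over the 8 libraries overlapped between *Kcne1* and *Kcng2*, between *Kcng2* and *Kcnh2*, between *Kcnk3* and *Kcnq1* and between *Kcnj8* and *Kcnj2*, so these neighbours are not ordered beyond their spread. They did not overlap between *Kcnh2* and *Kcnj5*, *Kcnj5* and *Kcnj11*, *Kcnj11* and *Kcnk3*, *Kcnq1* and *Kcnj8*, or *Kcnj2* and *Kcna5*. From *Kcna5* down to *Kcnj3* (2.96) every neighbouring pair overlapped.

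**Figure D1:**
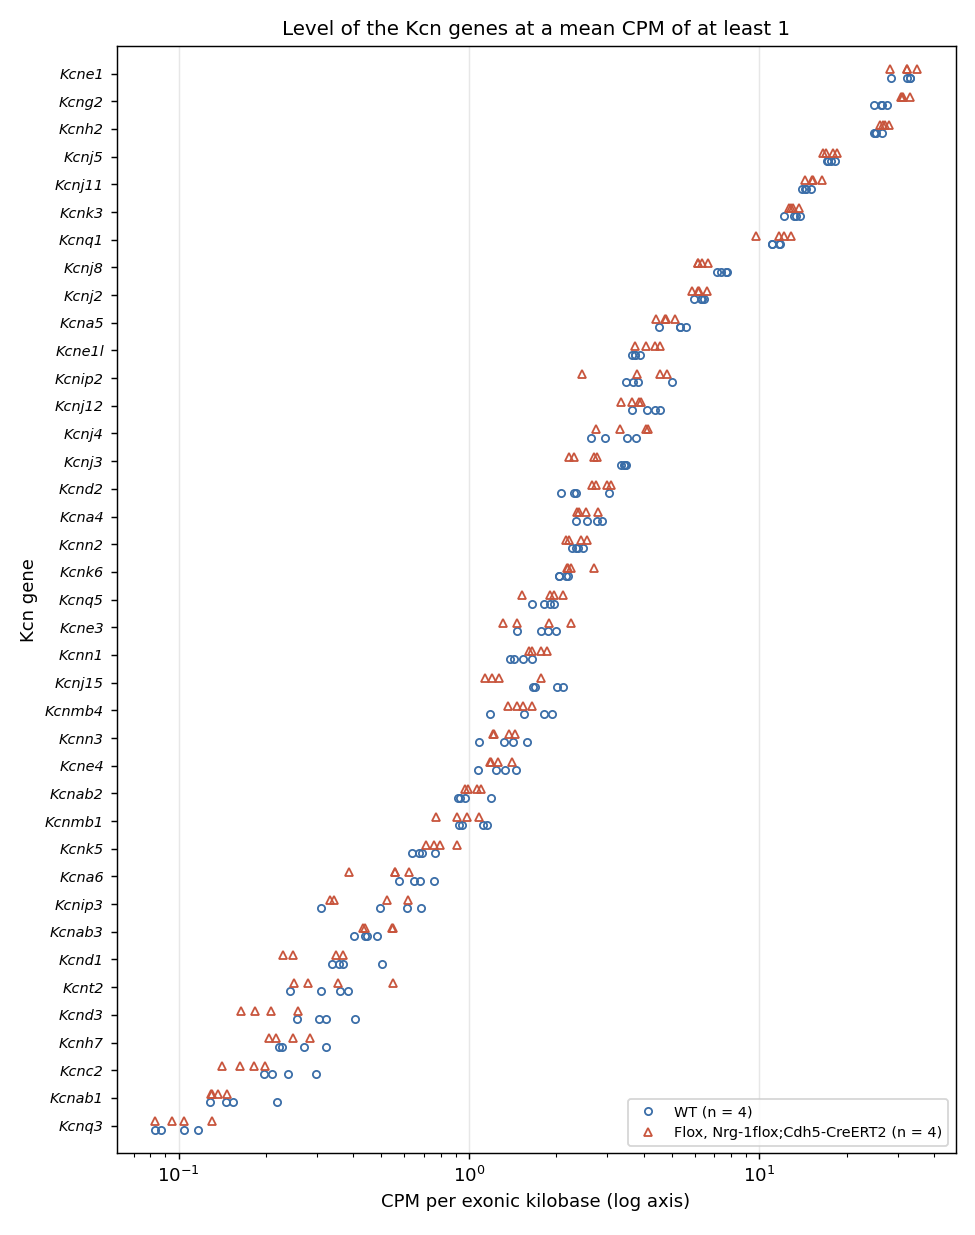
Level of 39 *Kcn* genes with a mean of at least 1 CPM, as CPM per exonic kilobase on a log axis, with 1 open symbol per library (circles WT, triangles Flox, n = 4 each). *Kcne1*, *Kcng2* and *Kcnh2* lead at 31.9, 29.0 and 26.2, and the circles and triangles of most genes lie over each other.

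Between the groups, the muscarinic channel subunit *Kcnj3* fell to 0.73 times its WT level and the silent subunit *Kcng2* rose to 1.20 times its WT level, and these were the only members called by edgeR's quasi-likelihood test at an adjusted p below 0.05. Of the 94 members, 54 passed the filter on low counts and were tested. The 2 calls are 3.70% of them, against 0.526% of all 15388 tested genes (0.312% higher and 0.214% lower in the Flox libraries). At an unadjusted p below 0.05, 10 tested members passed (4 higher, 6 lower, 18.5%), against 10.5% of all tested genes. The groups did not overlap for 5 tested members (9.26%: *Kcng2* and *Kcnj6* higher, *Kcnj3*, *Kcnj8* and *Kcng1* lower), against 6.05% of all tested genes. The median log2 fold change of the tested members was -0.01, with 24 above and 30 below 0, and that of all tested genes was -0.00. The median size of the change, whatever its direction, was 0.15 for tested members and 0.06 for all tested genes. It was 0.31 for tested members under 1 CPM and 0.13 for the 39 reported members. The members and all tested genes were not matched for level, so these sizes are not directly comparable. By class, 1 of 22 tested voltage-gated alpha subunits was called (higher) and 1 of 9 inward rectifiers (lower). None of the 13 auxiliary, 5 tandem-pore and 5 calcium- or sodium-activated genes tested was called by edgeR, DESeq2 or limma voom, and 1 of these 23, *Kcnn1*, had an unadjusted p below 0.05 in edgeR.

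**Figure D2:**
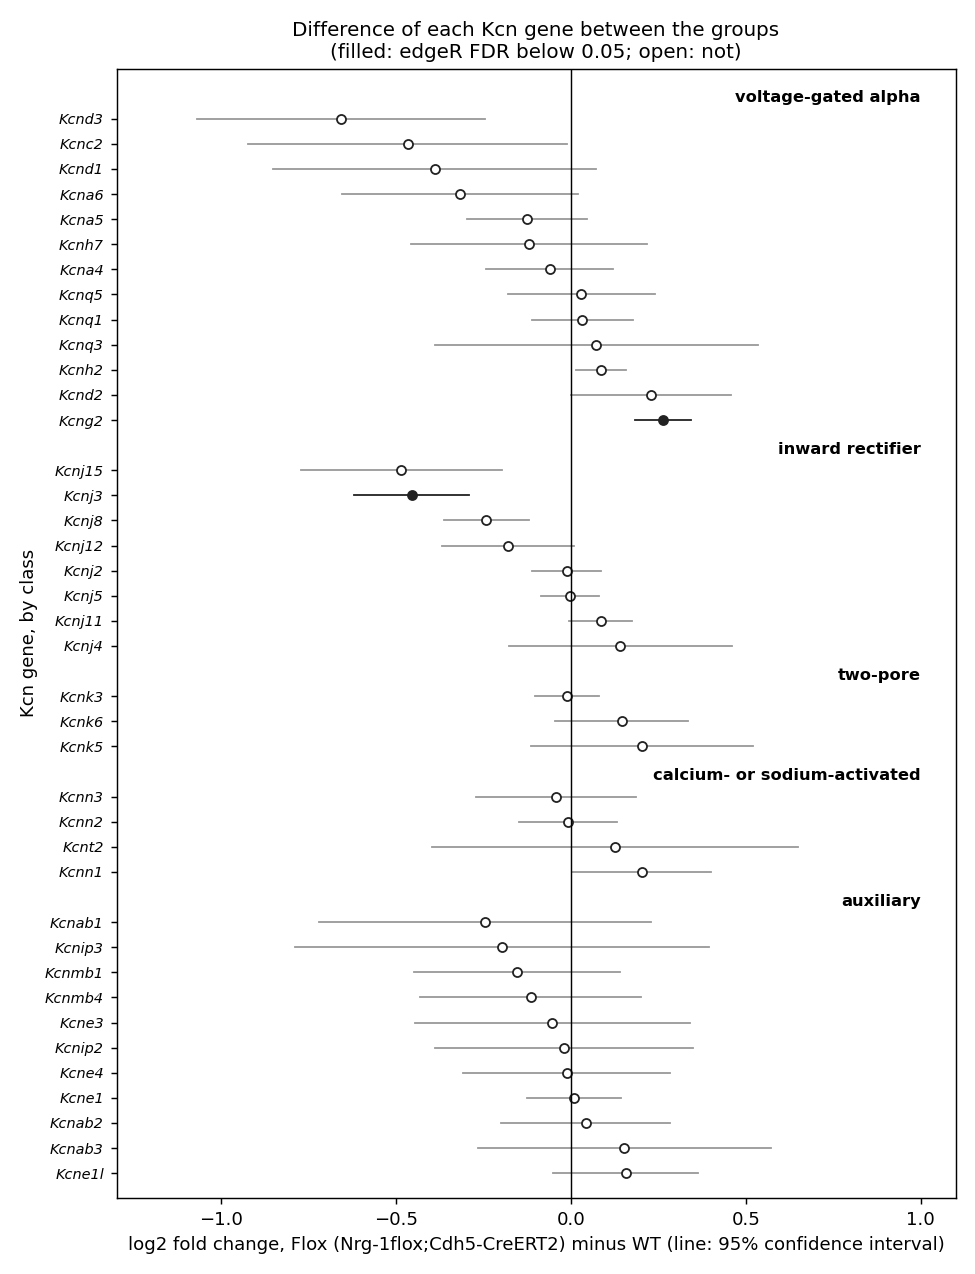
Log2 fold change of 39 *Kcn* genes, Flox minus WT, by class, with 95% confidence intervals as lines (edgeR, 4 libraries in each group, filled points adjusted p below 0.05). The filled points are *Kcng2* at 0.26 and *Kcnj3* at -0.46, and most other intervals cross 0.

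The called decrease was in a subunit of the muscarinic potassium channel, which acetylcholine opens through G protein beta-gamma subunits. Its pore is formed by *Kcnj3* (GIRK1) and *Kcnj5* (GIRK4). *Kcnj3* (ENSMUSG00000026824, chromosome 2, 55435970 to 55598145, plus strand, GRCm38) was at 17.9, 18.2, 18.0 and 17.5 CPM in the WT libraries 1 to 4. In Flox libraries 1 to 4 it was at 14.4, 14.1, 12.0 and 11.5 CPM. All 4 Flox libraries lay below the lowest WT library, and they were more spread than the WT libraries. The means were 17.9 ± 0.299 and 13.0 ± 1.45 CPM (SD, n = 4 each), a log2 fold change of -0.46 (SE 0.0758, 95% confidence interval -0.62 to -0.29, edgeR adjusted p = 0.0261). The adjusted p stayed below 0.05 under 12 of 19 alternatives. It was 0.0585, 0.0823, 0.0814 and 0.0607 without WT libraries 1, 2, 3 and 4, each with a log2 fold change of -0.45 to -0.47, and 0.111 without Flox library 3 (-0.42). It was also 0.0607 when the summed Y-linked level was entered as a covariate (-0.54).

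Part of the *Kcnj3* count depends on how reads were assigned. The non-coding gene *Gm26794* lies on the opposite strand and shares 31.1% of the exonic bases of *Kcnj3*, and whether the authors' counting used the strand is not given in the sources used here. *Gm26794* was at 1.02 ± 0.224 CPM in the WT libraries and 1.26 ± 0.730 CPM in the Flox libraries (SD, n = 4 each). Adding its counts and those of other overlapping non-coding genes to the *Kcn* genes, an alternative chosen after seeing the data, gave *Kcnj3* a log2 fold change of -0.40 with an edgeR adjusted p of 0.0537.

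The other subunit, *Kcnj5*, was at 82.9, 80.8, 80.1 and 85.5 CPM in the WT libraries and at 77.6, 86.7, 84.0 and 79.8 CPM in the Flox libraries. The groups overlapped throughout, and the log2 fold change was -0.00 with a 95% confidence interval of -0.09 to 0.08. Per exonic kilobase, *Kcnj3* made up 16.2%, 16.8%, 16.8% and 15.5% of the *Kcnj3* plus *Kcnj5* level in the WT libraries and 14.3%, 12.7%, 11.4% and 11.5% in the Flox libraries. *Kcnj5* thus exceeded *Kcnj3* by 5.12 ± 0.235 times in the WT libraries and by 7.09 ± 0.847 times in the Flox libraries (SD, n = 4 each), and the groups did not overlap.

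The *Kcnj3* and *Kcnj5* upstream sequences are shown because this pair forms 1 channel and only *Kcnj3* was called. The *Kcnj3* window also lies inside *Gm26794* (chromosome 2, 55433514 to 55437860). The sequences are the 250 bases before the start of each gene in RefSeq (GRCm38.p6, gene strand, 5′ to 3′), chr2:55435720-55435969 (plus strand) for *Kcnj3* and chr9:32344345-32344594 (minus strand) for *Kcnj5*. Capitals mark matches, on either strand, to the CCAAT box, spelled by its name, or to the GC box, spelled GGGCGG.
Kcnj3: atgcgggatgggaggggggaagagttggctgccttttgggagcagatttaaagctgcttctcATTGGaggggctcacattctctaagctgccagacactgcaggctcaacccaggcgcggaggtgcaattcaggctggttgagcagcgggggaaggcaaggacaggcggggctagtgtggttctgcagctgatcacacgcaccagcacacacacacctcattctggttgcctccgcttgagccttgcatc
Kcnj5: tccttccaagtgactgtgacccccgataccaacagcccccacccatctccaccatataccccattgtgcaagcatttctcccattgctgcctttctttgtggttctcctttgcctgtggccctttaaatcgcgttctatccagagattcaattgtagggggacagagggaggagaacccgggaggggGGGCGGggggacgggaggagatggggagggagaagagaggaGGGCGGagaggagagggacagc
The windows were alike in base composition, with 58.4% and 58.0% G or C and 7 CpG dinucleotides each. The *Kcnj3* window held 1 CCAAT match, on the reverse strand, and no GC box, while the *Kcnj5* window held 2 GC boxes and no CCAAT match. The TATA box (TATAAA) was in neither. Among 32851 RefSeq windows of that length, the CCAAT box was present in 33.8%, the GC box in 32.7% and the TATA box in 12.4%. Whether these matches bear on the levels of *Kcnj3* or *Kcnj5* was not tested.

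The receptors and G protein genes that act on this channel were measured from a list of partners. *Adora1*, the adenosine receptor that couples to it, averaged 36.6 ± 3.43 CPM in the WT libraries and 31.6 ± 1.88 CPM in the Flox libraries (log2 fold change -0.21, edgeR adjusted p = 0.222). *Chrm2*, the muscarinic receptor of cardiomyocytes, averaged 56.8 ± 0.922 and 52.1 ± 5.06 CPM (-0.12, edgeR adjusted p = 0.472). *Rgs4*, a regulator that ends G protein signalling, averaged 3.71 ± 0.747 and 2.70 ± 0.206 CPM (-0.45, edgeR adjusted p = 0.337). None of the 3 passed the test, and their groups overlapped. *Rgs6* was at -0.03, the inhibitory alpha subunits *Gnai2*, *Gnai3* and *Gnao1* were at -0.03, 0.01 and -0.10, and the beta and gamma subunits *Gnb1*, *Gnb2* and *Gng5* were at -0.01, -0.04 and 0.03.

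Since *Kcnj3* is known as an atrial-rich transcript, atrial markers are given beside it. All 6 (*Sln*, *Myl7*, *Myl4*, *Nppa*, *Nr2f2* and *Stard10*) had log2 fold changes below 0, with a median of -0.15, and none was called by edgeR, DESeq2 or limma voom (unadjusted p below 0.05 for 1 of 6 in edgeR). Their summed level was 3149 to 4078 CPM in the WT libraries and 3093 to 3774 CPM in the Flox libraries, and their part in the *Kcnj3* difference was not tested. In bulk ventricle, fewer cells of a type and less RNA per cell cannot be told apart.

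The called increase was in *Kcng2*, which forms no current alone and assembles with Kv2 alpha subunits. *Kcng2* (ENSMUSG00000059852, chromosome 18) was at 82.6, 74.2, 78.9 and 78.9 CPM in the WT libraries 1 to 4 and at 92.2, 93.6, 99.0 and 92.8 CPM in the Flox libraries 1 to 4. Every Flox library lay above the highest WT library. The means were 78.7 ± 3.45 and 94.4 ± 3.12 CPM (SD, n = 4 each), a log2 fold change of 0.26 (SE 0.0371, 95% confidence interval 0.18 to 0.34, edgeR adjusted p = 0.0118). The adjusted p stayed below 0.05 under 17 of 19 alternatives. It was 0.0607 after the same covariate was entered (0.28) and 0.0510 without Flox library 3 (0.24).

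*Kcng2* has an exonic GC content of 65.0%, higher than 99.7% of tested genes. After correction for GC content and length its log2 fold change was 0.17 (edgeR adjusted p = 0.0335). Its expected counts were not whole numbers in any library, so RSEM had divided reads between it and other genes. The opposite-strand gene *D330025C20Rik* shares 9.10% of its exonic bases and was at 11.2 ± 0.612 CPM in the WT libraries and 11.8 ± 1.49 CPM in the Flox libraries (SD, n = 4 each).

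Of the Kv2 subunits that *Kcng2* partners, *Kcnb2* averaged 0.664 CPM over all libraries (log2 fold change 0.38, edgeR adjusted p = 0.683). *Amigo1*, a membrane partner of Kv2, was at 0.13 (edgeR adjusted p = 0.626). *Kcna5*, the Kv1 pore of the ultrarapid current, averaged 14.9 ± 1.35 and 13.6 ± 0.869 CPM (-0.13, edgeR adjusted p = 0.630), with overlapping groups.

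The sum over all voltage-gated alpha subunits was 334 ± 5.62 CPM in the WT libraries and 355 ± 7.94 CPM in the Flox libraries (SD, n = 4 each), without overlap. Without *Kcng2*, a sum chosen after seeing the data, it was 255 ± 6.42 and 261 ± 5.23 CPM, with overlapping groups. Of the 22 tested genes of the class, 10 had log2 fold changes above 0 and 12 below, with a median of -0.05. The 8 *Kcna* genes summed to 32.9 ± 1.93 CPM in the WT libraries and 30.3 ± 0.845 CPM in the Flox libraries, in the opposite direction. None of the 4 tested *Kcna* genes was called by edgeR, DESeq2 or limma voom, and 0 had an unadjusted p below 0.05 in edgeR.

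**Figure D3:**
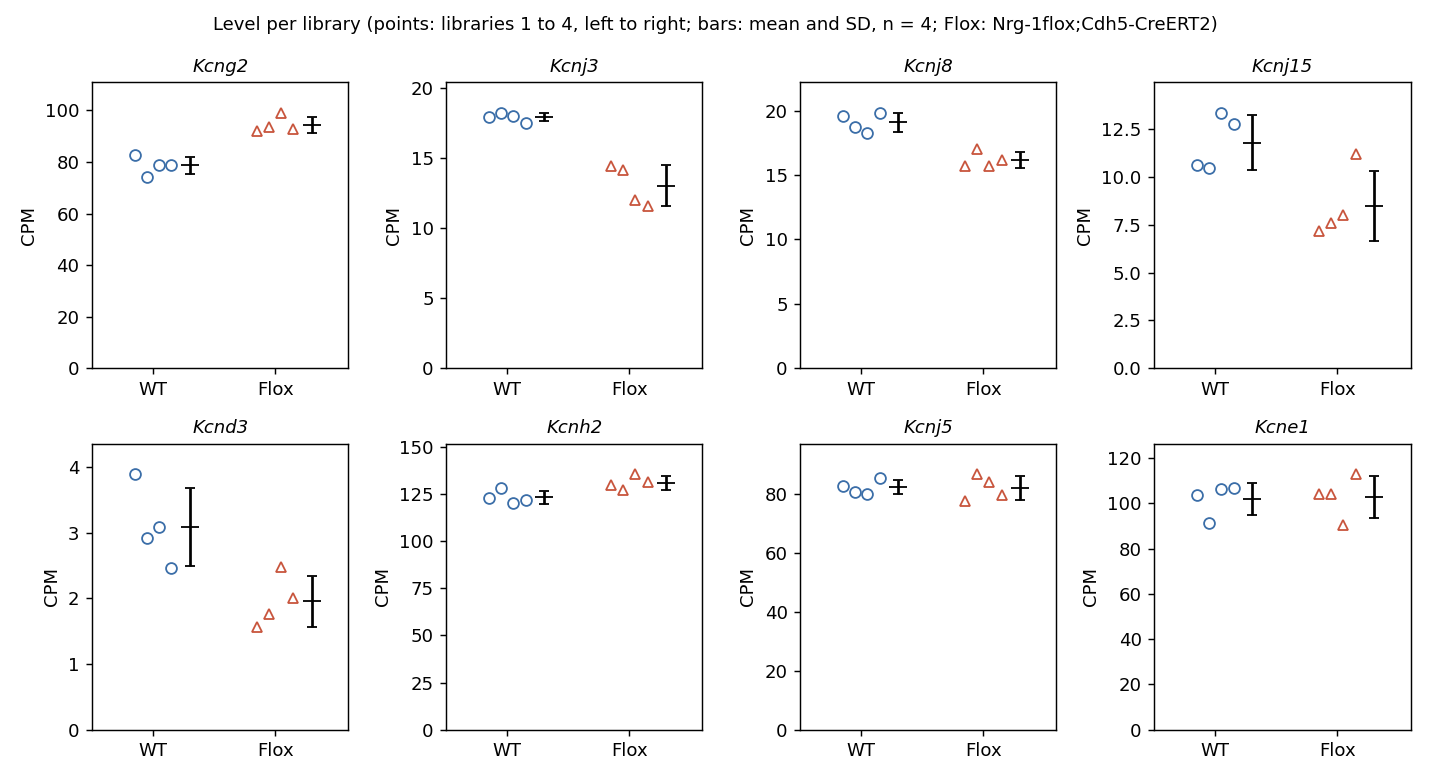
Level in CPM of 8 *Kcn* genes in every library (circles WT, triangles Flox, libraries 1 to 4 from left to right, bars mean and SD, n = 4, every axis from 0). The groups are apart for *Kcng2*, *Kcnj3* and *Kcnj8* and overlap for *Kcnj15*, *Kcnd3*, *Kcnh2*, *Kcnj5* and *Kcne1*.

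The ATP-sensitive channel, which opens when ATP falls, is built from the pore subunits *Kcnj11* (the main pore in ventricular cardiomyocytes) or *Kcnj8* (the main pore in vascular smooth muscle) with the sulphonylurea receptors *Abcc8* and *Abcc9*. *Kcnj8* lay just outside the threshold, and the members near it are described with their values seen. It was at 19.6, 18.8, 18.3 and 19.8 CPM in the WT libraries 1 to 4 and at 15.7, 17.0, 15.7 and 16.2 CPM in the Flox libraries 1 to 4. No library of either group reached the range of the other. The means were 19.1 ± 0.720 and 16.1 ± 0.622 CPM (SD, n = 4 each), a log2 fold change of -0.24 (95% confidence interval -0.36 to -0.12, edgeR adjusted p = 0.0867). Over 19 alternatives the adjusted p lay between 0.0646 and 0.329, so *Kcnj8* was not called under any of them.

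*Kcnj11* was at 55.4, 51.8, 53.3 and 53.0 CPM in the WT libraries and at 56.5, 60.5, 55.9 and 53.0 CPM in the Flox libraries. The groups overlapped, and the log2 fold change was 0.08 with a 95% confidence interval of -0.01 to 0.17 (edgeR adjusted p = 0.512). *Kcnj8* made up 34.1% ± 0.840 of the *Kcnj8* plus *Kcnj11* level per exonic kilobase in the WT libraries and 29.2% ± 0.926 in the Flox libraries (SD, n = 4 each), without overlap. The summed CPM of this pair was 72.5 ± 1.92 in the WT libraries and 72.6 ± 3.51 in the Flox libraries.

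The receptors were not called either. *Abcc9* averaged 203 ± 8.83 CPM in the WT libraries and 186 ± 14.4 CPM in the Flox libraries (log2 fold change -0.12, edgeR adjusted p = 0.429), and *Abcc8* averaged 20.4 ± 2.15 and 23.8 ± 2.86 CPM (0.23, edgeR adjusted p = 0.399). *Kcnj8* and *Abcc9* are also markers of pericytes. Of the 7 mural and smooth muscle markers (*Acta2*, *Tagln*, *Myh11*, *Rgs5*, *Pdgfrb*, *Abcc9* and *Notch3*), 6 had log2 fold changes below 0, with a median of -0.12, and *Acta2* was at 0.12. None was called by edgeR, and 1 was called by DESeq2. In edgeR 4 of the 7 had an unadjusted p below 0.05, against 10.5% of all tested genes. Of these, *Acta2* was higher in the Flox libraries, and *Rgs5*, *Pdgfrb* and *Abcc9* were lower. The sum of the 7 markers, most of it *Acta2*, was 1794 to 1905 CPM in the WT libraries and 1854 to 1972 CPM in the Flox libraries. The part of these markers in the *Kcnj8* difference was not tested.

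The delayed rectifiers end the action potential. *Kcnh2*, the pore of the rapid current, had the highest CPM of the members, at 123, 128, 120.4 and 122 CPM in the WT libraries 1 to 4 and at 129.7, 127, 135 and 131 CPM in the Flox libraries 1 to 4. WT library 2 lay above Flox library 2, so the groups overlapped. The log2 fold change was 0.09 (95% confidence interval 0.01 to 0.16, edgeR adjusted p = 0.364), and it did not pass the test. Its auxiliary subunit *Kcne2* was low, at 0.56 to 1.68 CPM in the WT libraries and 0.53 to 0.92 CPM in the Flox libraries.

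The slow current is formed by *Kcnq1* with *Kcne1*, which slows its opening. *Kcnq1* (chromosome 7) was at 45.4, 47.9, 48.2 and 45.3 CPM in the WT libraries and at 49.7, 52.7, 48.0 and 39.9 CPM in the Flox libraries. Flox library 4 was the lowest of the 8 and Flox library 2 the highest, and the log2 fold change was 0.03 (95% confidence interval -0.11 to 0.18). *Kcne1* was at 104, 91.5, 106 and 107 CPM in the WT libraries and at 104, 104, 90.6 and 113 CPM in the Flox libraries, with a log2 fold change of 0.01 (95% confidence interval -0.13 to 0.14). The groups overlapped for both genes. *Kcnq1* made up 26.5% ± 1.83 of the *Kcnq1* plus *Kcne1* level per exonic kilobase in the WT libraries and 26.7% ± 3.43 in the Flox libraries (SD, n = 4 each). *Akap9*, a scaffold that holds regulatory enzymes at this channel, was at 0.04 (edgeR adjusted p = 0.876). *Kcnq1* shares 2.96% of its exonic bases with the opposite-strand *Kcnq1ot1*, which averaged 9.51 CPM.

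The transient outward current makes the early repolarisation and is carried by Kv4 pores (*Kcnd2* and *Kcnd3*) with *Kcnip2*, and by *Kcna4*. Its members did not all lie in the same direction. *Kcnd3* was at 3.89, 2.91, 3.09 and 2.46 CPM in the WT libraries 1 to 4 and at 1.57, 1.76, 2.47 and 2.001 CPM in the Flox libraries 1 to 4. Only Flox library 3 reached the lowest WT library. The log2 fold change was -0.66 (95% confidence interval -1.07 to -0.25, edgeR adjusted p = 0.186), and over 19 alternatives it lay between -0.80 and -0.53 with adjusted p between 0.0912 and 0.407. *Kcnd2* averaged 12.6 ± 2.13 CPM in the WT libraries and 14.8 ± 1.03 CPM in the Flox libraries (0.23, edgeR adjusted p = 0.473). Per exonic kilobase *Kcnd3* made up 11.8% ± 2.36 of the *Kcnd3* plus *Kcnd2* level in the WT libraries and 6.67% ± 1.54 in the Flox libraries (SD, n = 4 each), without overlap.

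*Kcnip2*, the calcium-binding subunit of Kv4 channels, was at 12.8, 12.1, 17.4 and 13.3 CPM in the WT libraries and at 15.8, 16.7, 13.2 and 8.53 CPM in the Flox libraries. Flox library 4 was the lowest and WT library 3 the highest, and the log2 fold change was -0.02 (95% confidence interval -0.39 to 0.35). *Kcna4* averaged 12.7 ± 1.15 and 12.2 ± 0.917 CPM (-0.06, edgeR adjusted p = 0.873). *Kcnd1*, another Kv4 pore, averaged 2.07 ± 0.395 and 1.58 ± 0.369 CPM (-0.39, edgeR adjusted p = 0.572). *Dpp6*, a membrane partner of Kv4, averaged 1.01 ± 0.280 and 0.642 ± 0.178 CPM (-0.62, edgeR adjusted p = 0.482). The summed CPM of *Kcnd2*, *Kcnd3*, *Kcna4* and *Kcnip2* was 42.3 ± 3.65 in the WT libraries and 42.5 ± 3.22 in the Flox libraries.

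The inward rectifier current that holds the resting potential is carried by *Kcnj2*, *Kcnj12* and *Kcnj4*. *Kcnj2* was at 32.5, 34.7, 35.2 and 34.2 CPM in the WT libraries and at 33.6, 36.0, 32.0 and 33.8 CPM in the Flox libraries. The ranges lay over each other, with a log2 fold change of -0.01 (95% confidence interval -0.11 to 0.09). *Kcnj12* averaged 11.5 ± 1.07 and 10.1 ± 0.704 CPM (-0.18, edgeR adjusted p = 0.509), and *Kcnj4* averaged 6.92 ± 1.13 and 7.67 ± 1.45 CPM (0.14, edgeR adjusted p = 0.813). *Kcnj12* made up 39.9% ± 2.80 of the *Kcnj12* plus *Kcnj2* level per exonic kilobase in the WT libraries and 37.2% ± 0.827 in the Flox libraries (SD, n = 4 each), with overlap.

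*Kcnj15*, an inward rectifier better known from kidney and other epithelia, was at 10.6, 10.5, 13.3 and 12.7 CPM in the WT libraries 1 to 4 and at 7.18, 7.59, 8.02 and 11.2 CPM in the Flox libraries 1 to 4. Flox libraries 1 to 3 lay below every WT library, and Flox library 4 lay within the WT range. The log2 fold change was -0.49 (SE 0.133, edgeR adjusted p = 0.154). Without Flox library 4 it was -0.63 with an adjusted p of 0.0228. It was called by DESeq2 (-0.48, adjusted p = 0.0414) and by edgeR without the filter on low counts (adjusted p = 0.00795). After the Y-linked covariate was entered it was -0.24 with an edgeR adjusted p of 0.568.

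**Figure D4:**
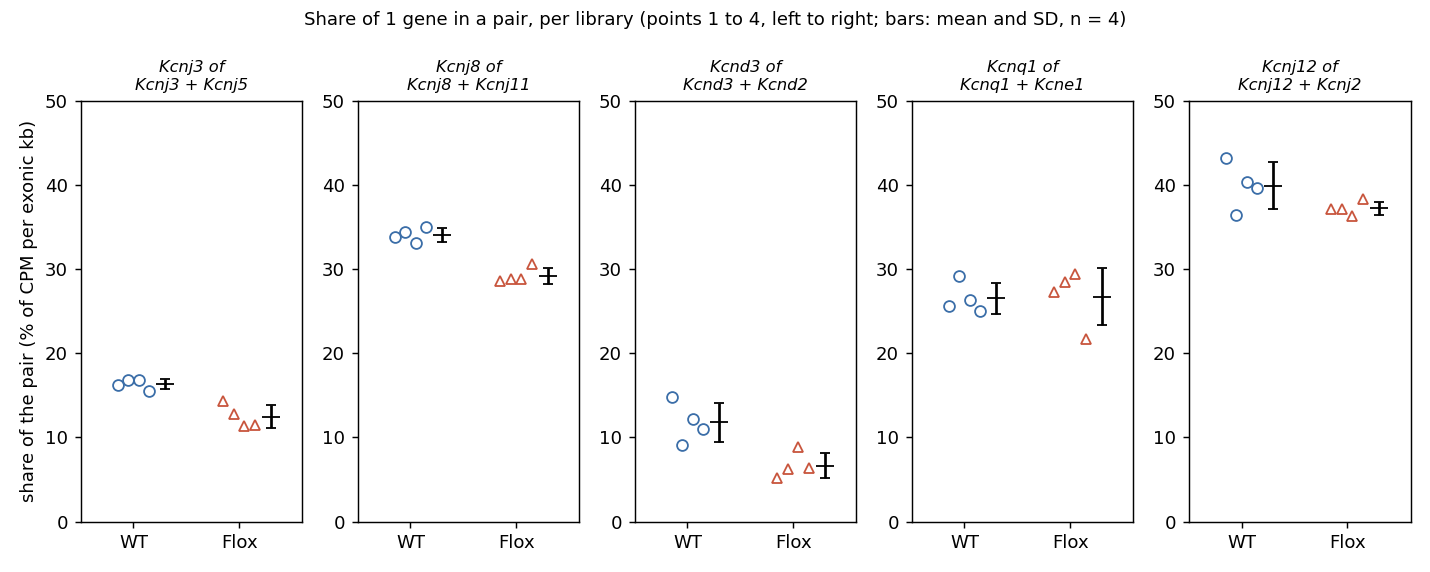
Share of the first-named gene in the summed level of a pair, as a percentage of CPM per exonic kilobase, in every library (circles WT, triangles Flox, libraries 1 to 4 from left to right, bars mean and SD, n = 4). The shares of *Kcnj3*, *Kcnj8* and *Kcnd3* are lower in all 4 Flox libraries than in any WT library (means 16.3% and 12.5%, 34.1% and 29.2%, 11.8% and 6.67%), while those of *Kcnq1* and *Kcnj12* overlap. The shares come from the same levels as the single genes and are no separate test. In CPM the groups of *Kcnd3* overlap.

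Among the tandem-pore background channels, *Kcnk3* (TASK1) was at 52.5, 53.3, 48.5 and 54.8 CPM in the WT libraries and at 50.3, 51.1, 52.0 and 54.4 CPM in the Flox libraries. Every Flox library lay within the WT range, and the log2 fold change was -0.01 (95% confidence interval -0.10 to 0.08). *Kcnk6* averaged 8.76 ± 0.312 and 9.66 ± 1.003 CPM (0.15, edgeR adjusted p = 0.613), with Flox library 2 at 11.2 CPM and the other 3 between 9.05 and 9.30 CPM. *Kcnk5* averaged 2.35 ± 0.183 and 2.70 ± 0.291 CPM (0.20, edgeR adjusted p = 0.689).

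Among the small-conductance calcium-activated channels, *Kcnn2* was at 18.4, 17.4, 17.7 and 16.9 CPM in the WT libraries and at 19.0, 16.6, 18.2 and 16.2 CPM in the Flox libraries. The Flox values spread over and past the WT range on both sides, and the log2 fold change was -0.01 (95% confidence interval -0.15 to 0.13). *Kcnn3* averaged 14.1 ± 2.17 and 13.7 ± 1.20 CPM (-0.04, edgeR adjusted p = 0.938), and *Kcnn1* averaged 6.88 ± 0.543 and 7.90 ± 0.513 CPM (0.20, edgeR adjusted p = 0.467). The sodium-activated *Kcnt2* averaged 2.23 ± 0.429 and 2.46 ± 0.920 CPM (0.13, edgeR adjusted p = 0.913).

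The pore of the large-conductance channel, *Kcnma1*, was too low to be tested, at 0.35 to 0.65 CPM in the WT libraries and 0.25 to 0.59 CPM in the Flox libraries, while its auxiliary subunits were higher. *Kcnmb4* was at 3.93, 6.05, 5.13 and 6.41 CPM in the WT libraries and at 5.11, 4.53, 4.85 and 5.47 CPM in the Flox libraries. All Flox libraries lay within the WT range (log2 fold change -0.12, 95% confidence interval -0.43 to 0.20). *Kcnmb1*, the smooth muscle subunit, averaged 4.35 ± 0.485 and 3.93 ± 0.551 CPM (-0.15, edgeR adjusted p = 0.768).

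Other voltage-gated alpha subunits are best known from neurons. *Kcnq5* averaged 14.1 ± 1.07 and 14.4 ± 1.94 CPM (log2 fold change 0.03), *Kcnh7* averaged 3.97 ± 0.701 and 3.63 ± 0.541 CPM (-0.12), and *Kcna6* averaged 3.95 ± 0.453 and 3.15 ± 0.599 CPM (-0.32, edgeR adjusted p = 0.513). *Kcnq3* averaged 1.44 ± 0.230 and 1.52 ± 0.299 CPM (0.07), and *Kcnc2* averaged 1.68 ± 0.320 and 1.22 ± 0.175 CPM (-0.47, edgeR adjusted p = 0.464). None passed the test, and the groups overlapped for each of them. *Kcna6* shares 39.6% of its exonic bases with the opposite-strand *Gm26673*, which is listed at 0 in every library, and *Kcnh7* shares 4.57% with the opposite-strand *Gca*, which averaged 25.4 CPM.

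Of the other auxiliary subunits, *Kcne1l*, on the X chromosome, averaged 5.80 ± 0.161 and 6.46 ± 0.549 CPM (0.16, edgeR adjusted p = 0.622). *Kcne4* averaged 3.39 ± 0.426 and 3.35 ± 0.272 CPM (-0.01), and *Kcne3* averaged 3.16 ± 0.408 and 3.07 ± 0.753 CPM (-0.05). The Kv1 beta subunits *Kcnab2*, *Kcnab3* and *Kcnab1* averaged 5.60 ± 0.724, 1.27 ± 0.0979 and 1.39 ± 0.336 CPM in the WT libraries, with log2 fold changes of 0.04, 0.15 and -0.25. *Kcnip3*, a calcium sensor of the *Kcnip2* family, averaged 1.86 ± 0.581 and 1.61 ± 0.496 CPM (-0.20). Their groups overlapped, and none passed the test.

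The other 53 members had a mean below 1 CPM, the highest being *Kcne2* at 0.922 CPM. Of these, 8 had no counts in any library (*Kcna10*, *Kcnh4*, *Kcnj1*, *Kcnk9*, *Kcnk15*, *Kcnk16*, *Kcnk18* and *Kcns2*), which allows a level of up to 0.124 to 0.179 CPM, the worth of 3 counts in a library. Only 13 of the 53 were tested, and none was called by edgeR, DESeq2 or limma voom (1 with an unadjusted p below 0.05 in edgeR). Named because their groups did not overlap, which was seen first, *Kcng1* was at 0.46 to 0.84 CPM in the WT libraries and 0.21 to 0.41 CPM in the Flox libraries (log2 fold change -1.24, SE 0.346, edgeR adjusted p = 0.168). *Kcnj6*, a GIRK subunit of neurons, was at 0.53 to 0.74 and 0.75 to 1.06 CPM (0.43, edgeR adjusted p = 0.596). These values rest on at most 19 and 21 counts in a library.

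Outside the *Kcn* family, 22 partner genes of these channels were listed and 18 were tested. None was called by edgeR, DESeq2 or limma voom, and at an unadjusted p below 0.05 edgeR passed 5 (27.8%, against 10.5% of all tested genes), with *Abcc8* higher and *Abcc9*, *Adora1*, *Chrm2* and *Rgs4* lower. The median log2 fold change of the tested partners was -0.02. The scaffolds *Dlg1* and *Cav3* were at 0.02 and 0.03. *Lrrc26*, *Lrrc38*, *Lrrc52* and *Lrrc55*, auxiliary subunits of the large-conductance channel, and *Dpp10* were all below 1 CPM.

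Markers of the other cell types in a ventricle are given because they differ in which potassium channels they hold. None of the 40 marker genes tested was called by edgeR. At an unadjusted p below 0.05 edgeR passed 11 of them, against 10.5% of all tested genes. DESeq2 called 4 of them, against 195 of all 15388 tested genes. Of the 5 endothelial markers, 4 had log2 fold changes below 0, with a median of -0.09 and a sum of 919 to 945 CPM in the WT libraries and 857 to 922 CPM in the Flox libraries. *Kdr*, the VEGF receptor 2, averaged 180.4 ± 7.39 and 161 ± 4.37 CPM (log2 fold change -0.17, edgeR adjusted p = 0.0693, DESeq2 adjusted p = 0.00377), and *Tie1*, an endothelial receptor kinase, averaged 160.3 ± 2.16 and 143 ± 8.91 CPM (-0.17, edgeR adjusted p = 0.121, DESeq2 adjusted p = 0.0202). For both the groups did not overlap, as for 6.05% of all tested genes, and they were 2 of the 4 markers called by DESeq2. *Pecam1* was at -0.09 (edgeR adjusted p = 0.357), *Tek* at -0.03 (edgeR adjusted p = 0.887) and *Cdh5* at 0.01 (edgeR adjusted p = 0.967). Each of these had overlapping groups, and DESeq2 called none of them. The 5 fibroblast markers had a median of -0.08, the 4 erythroid markers 0.12 and the 4 macrophage markers 0.02. The neuronal markers *Th* and *Prph* and the Schwann cell marker *Sox10* were too low to be tested. The part of these cell types in the *Kcn* differences was not tested.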

How the data were processed

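Per the labels, polyadenylated RNA (from 100 ng of total RNA) was made into directional libraries and sequenced as 60-base single reads on a HiSeq2500. The deposited table holds expected counts that the authors estimated with RSEM for each Ensembl gene. The submitters' processing notes name cutadapt, RSEM 1.3.1 and GRCm38, and the aligner and the strand setting are not given in the sources used here. An expected count is an estimate in which reads that match several genes are divided between them.

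Here rounded expected counts passed filterByExpr by group (15388 genes left) and TMM scaling. The quasi-likelihood F test of edgeR 4.0.16 in R 4.3.3 (two-sided, no term but group) compared Flox with WT. P-values were adjusted by Benjamini-Hochberg across the tested genes, and an adjusted p below 0.05 was called. GENCODE M21 (GRCm38) gave positions, lengths, GC content and overlaps and matched 53274 of 53465 identifiers, while RefSeq promoter windows (GRCm38.p6) matched 69 of 94 members by symbol. The fits were tested on simulated data. Alternatives were 3 scalings (RLE, upper quartile, total count), the filter left out or set to 1 CPM in at least 4 libraries, DESeq2 1.42.0, limma 3.58.1 (voom), the replicate number as a block, the Y-linked level as a covariate, a GC and length correction, summing of overlapping genes and leaving out each library. Summing of all overlapping non-coding genes was added after seeing the data.

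Members with a mean of at least 1 CPM were named, except 2 that are not reported here. Values in every library were given for *Kcnj3*, *Kcng2*, *Kcnq1*, *Kcnh2*, for called members and for the member of each current with the highest level per exonic kilobase. They were also given for *Kcnj8*, *Kcnd3* and *Kcnj15*, which were picked with their values seen. The members, the partner and marker lists and the tests were chosen with earlier results of these data known. No source says that the ventricles came from separate embryos, so p-values measure only the spread between these libraries.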

Additional observations from a re-analysis of the deposited data

Results flagged for a closer look

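*Kcnk6* stood out in 1 Flox library. It was at 11.2 CPM in library 2 and between 9.05 and 9.30 CPM in the other 3, a gap to its nearest neighbour of 0.881 of the whole range of the group, which is past Dixon's critical value for 4 values. Of 80 groups of 4 values examined this was the 1 that passed, and about 4 would by chance at 1 in 20.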

How the results depend on the processing

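The number of *Kcn* genes called was 2 in the main analysis. It was 0 with the Y-linked covariate (0 higher, 0 lower) and 1 with the non-coding overlaps summed (0 lower), and the number called lower was 2 with no filter and 2 with DESeq2. Leaving out 1 library gave 0 to 3 calls (higher 0 to 1, lower 0 to 2). With each WT library left out in turn 1 call was left, without Flox library 3 none was (11 genes were called in all), and without Flox library 4 there were 3, *Kcnj15* being the added one (142 in all). Over all genes the number of calls was 81, and 338 without the filter, 195 with DESeq2 and 16 with the Y-linked covariate. The cause of these shifts was not tested. Of the 39 named members, 36 were called neither in the main analysis nor under any of the 19 alternatives. For 24 the sign was the same under all 19, and for the other 15 it turned at least once, the largest change among them in the main analysis being that of *Kcnmb1* (-0.15). Summing a member with a gene whose exons overlapped it by a fraction of 0.5 or more (relative to the shorter gene) gave the same values as the main analysis for all 15388 genes and is not counted among the 19. The sign turned with the Y-linked covariate for *Kcnk3* (0.0201), *Kcnq1* (-0.102), *Kcnn3* (0.0318), *Kcnab2* (-0.0329), *Kcnmb1* (0.055) and *Kcne3* (0.16), with the GC and length correction for *Kcnj5* (0.00902) and *Kcnn2* (0.00181), and with the non-coding overlaps summed for *Kcnk3* (0.00453). Leaving out 1 library gave log2 fold changes of -0.0394 to 0.0657 for *Kcne1*, -0.0302 to 0.0242 for *Kcnj5*, -0.0435 to 0.015 for *Kcnk3*, -0.0202 to 0.103 for *Kcnq1*, -0.044 to 0.0148 for *Kcnj2*, -0.0492 to 0.0232 for *Kcnn2* and -0.0368 to 0.125 for *Kcnq5*. It gave -0.136 to 0.0397 for *Kcnn3*, -0.138 to 0.135 for *Kcnip2*, -0.0849 to 0.0593 for *Kcne4*, -0.206 to 0.0595 for *Kcne3*, -0.131 to 0.265 for *Kcnt2* and -0.0604 to 0.173 for *Kcnq3*. Ranked by CPM without division by length, *Kcnh2* came first, followed by *Kcne1* and *Kcng2*. With the replicate number as a block, *Kcng2* was at 0.26 (edgeR adjusted p = 0.0150) and *Kcnj3* at -0.46 (edgeR adjusted p = 0.0285), and 2 members were called. The block thus changed no call among the *Kcn* genes, while over all genes 93 were called with it, against 81 without. Same-numbered WT and Flox libraries correlated in their deviations by 0.0998, 0.0474, 0.0447 and 0.121, and each library correlated best with its own number, a hint from the data and not from the design, so the numbers are not taken to pair the libraries. Genes below 1 CPM rest on few counts, and 13 of these 53 members were tested.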
